A study of Mus musculus with 3 samples.

Results

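Fibroblasts (FBs) that carried Cxcl14 and Hsd11b1 transcripts but few transcripts of the activated, adventitial, valve-type or Inmt/Gdf10 programs were examined in single-cell RNA-seq libraries of the mouse ventricle. Cells with at least 200 genes were kept. A cell was an FB when its UMIs (unique molecular identifiers, counted transcripts) of Col1a1, Col1a2 and Pdgfra summed to at least 3 and exceeded 2 times each of 3 other sums, which marked endothelial cells (ECs), blood cells and mural cells. A member was an FB with at least 3 UMIs of Cxcl14 and Hsd11b1 together and no UMI of Cd248. It also had at most 2 UMIs of Inmt and Gdf10, at most 1 of Wif1, Comp and Chad, and at most 4 of Postn, Thbs4 and Cilp. This selected 73 members from 1419 FBs and 6915 cells. The healthy heart held 63 members of 1160 FBs, the adaptive hypertrophy phase 1 of 97, and the heart failure phase 9 of 162.

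The hearts came from wild-type male C57BL/6J JCL mice. Pressure overload was imposed by transverse aortic constriction (TAC), a ligature around the aortic arch, at 8 weeks of age. The libraries held non-cardiomyocytes of the ventricles at 0 weeks (healthy, labelled as the untreated control), 2 weeks (adaptive hypertrophy) and 12 weeks of TAC (heart failure), where the week numbers are those of the study's methods. Each phase was 1 library, the number of hearts in it is not given in the sources used here, and age, time and library cannot be told apart from TAC. There was therefore no replicate and no test between phases or cell groups, and cells of 1 library are not replicates of a condition. Every interval below is a 95% interval for counting error only.

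Resting cardiac FBs keep up the collagen network of the ventricular wall and lie along its capillaries and muscle fibers. Cxcl14 encodes a chemokine that many tissues make without injury. Hsd11b1 encodes 11beta-hydroxysteroid dehydrogenase type 1, the enzyme of the endoplasmic reticulum that turns inactive 11-dehydrocorticosterone into corticosterone inside the cell, so that the glucocorticoid receptor can be reached without a change in blood hormone. Metallothioneins, which bind zinc and copper, are among the classical genes induced by glucocorticoids and by metals.

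Levels are given as CPM, the UMIs of a gene scaled to a common total in each cell group, which can be compared between groups for a gene but not between genes. In the healthy library, Cxcl14 stood at 1861 CPM in members, 52.9 in other FBs and 4.78 in ECs. Hsd11b1 stood at 624 CPM in members, 51.5 in other FBs and 2.23 in ECs. These values follow from the selection and were not tested. A Cxcl14 UMI was found in 79.4% of members, 7.38% of other FBs and 1.48% of ECs, a cell type that should lack it. For Hsd11b1 the shares were 66.7%, 13.8% and 0.690%. The median depth was 3257 UMIs in members, 3054 in other FBs and 2337 in ECs.

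Most members were defined by Cxcl14. Of the 63 healthy members, 29 carried both genes, 21 Cxcl14 alone and 13 Hsd11b1 alone. The median member had 4 Cxcl14 UMIs and 1 Hsd11b1 UMI, and the highest values were 40 and 9. Members held 382 of the 672 Cxcl14 UMIs of all healthy cells but only 128 of the 399 Hsd11b1 UMIs, so most Hsd11b1 transcripts lay outside them. At 12 weeks 5 of the 9 members carried both genes, 2 Cxcl14 alone and 2 Hsd11b1 alone. Those 9 cells held 47 of 115 Cxcl14 UMIs and 25 of 71 Hsd11b1 UMIs. On the threshold, 16 healthy members had a sum of exactly 3, and 36 healthy FBs within the other limits had a sum of 2. Of the 85 healthy FBs with a sum of at least 3, 15 were left out for Cd248, 6 for Postn, Thbs4 and Cilp, 2 for Inmt and Gdf10, and 0 for Wif1, Comp and Chad, with some cells failing more than 1 limit.

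**Figure D1:**
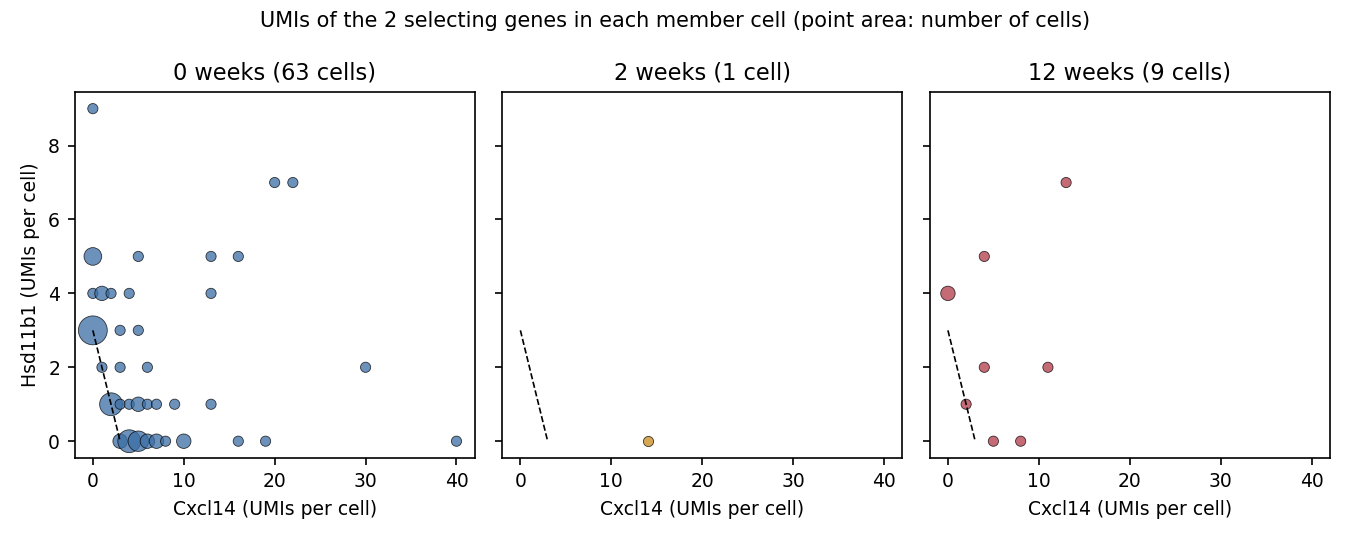
UMIs of Cxcl14 (x axis) and Hsd11b1 (y axis) in each member cell, 1 panel a phase, with point area for the number of cells and a dashed line at a sum of 3. Healthy members reached 40 UMIs of Cxcl14 and 9 of Hsd11b1, and the 9 cells of 12 weeks spread over the same range up to 13 and 7.

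Fibroblast genes were abundant in the members of 0 and 12 weeks. The list of fibroblast identity genes (Dcn, Gsn, Lum, Col3a1, Tcf21, Dpt, Ddr2, Fstl1, Mmp2 and Serpinf1) summed to 59411 CPM in healthy members, 52716 in the other healthy FBs, 65146 in the members of 12 weeks and 56238 in the other FBs there. All 10 genes were detected in both sets of members. Sums over marker lists of other cell types were low. In healthy members the 6 endothelial markers summed to 185 CPM, the 6 blood markers to 244, the 5 mural markers to 48.7, the 7 cardiomyocyte markers to 48.7 and the 5 epicardial markers to 14.6, with Esam, Higd1b, Cspg4, Myh6, Msln and Upk1b at 0. The other healthy FBs had 312, 274, 25.1, 46.9 and 23.2 CPM of these lists. At 12 weeks the endothelial sum was 440 CPM in members and 257 in other FBs, the blood sum 244 and 412, and the mural, cardiomyocyte and epicardial sums were 0 in members. The median mitochondrial share was 2.76% in healthy members and 2.56% in other healthy FBs, and 3.27% and 4.01% at 12 weeks.

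The 1 member of 2 weeks went against the label. It passed the rule with 8 UMIs of Col1a2, 2 of Col1a1 and 14 of Cxcl14, but it had no Hsd11b1, Dcn, Lum or Pdgfra and only 4 UMIs of Gsn. It carried 91 UMIs of Pmp22 and 50 of Mbp, both genes of myelin proteins, in a total of 4268 UMIs. Fibroblast identity genes gave it 6 UMIs, or 1406 CPM. It is counted in the share below, and its genes are compared with those of other cells only among the alternative settings.

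**Figure D2:**
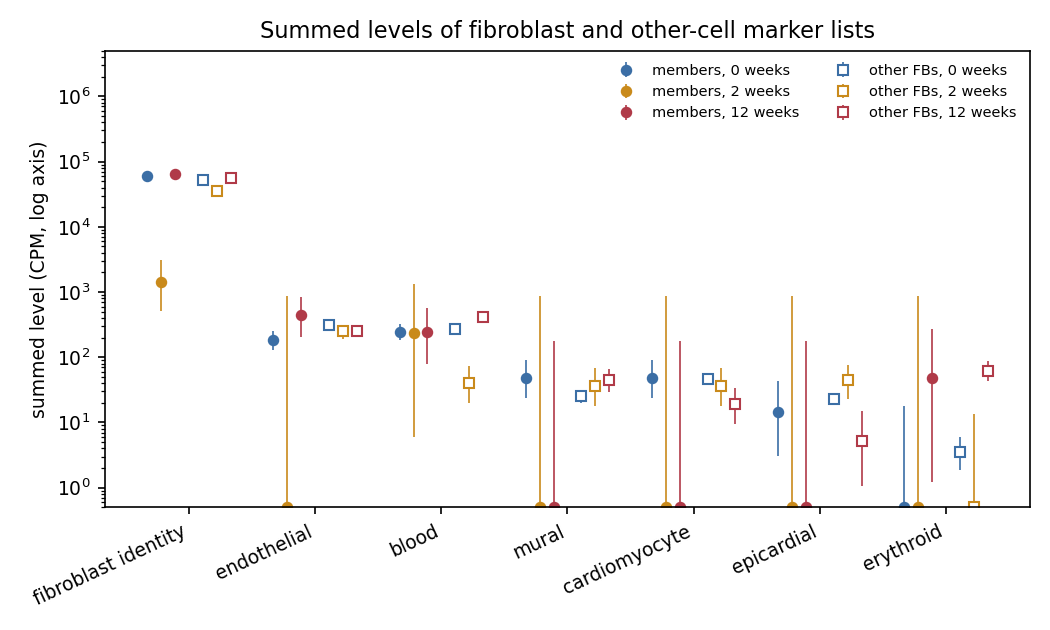
Summed levels (CPM, log axis) of the fibroblast identity list and of 6 lists for other cell types, in members (filled circles) and other FBs (open squares) of each phase, with 95% Poisson intervals and values of 0 on the lower edge. The member of 2 weeks stands at 1406 CPM of fibroblast identity genes, while members of 0 and 12 weeks show 59411 and 65146 CPM of fibroblast identity genes.

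The intervals of the members' share of FBs overlapped between all phases. The share was 5.43% at 0 weeks (exact binomial interval 4.2 to 6.89), 1.03% at 2 weeks (0.0261 to 5.61) and 5.56% at 12 weeks (2.57 to 10.3). Without the cell that went against its label, the 2-week share was 0 of 97. Depth moved with phase, since the median cell had 2589 UMIs at 0 weeks, 1495 at 2 weeks and 1434 at 12 weeks. With every cell thinned to 1000 UMIs and shallower cells left out (3892, 1625 and 524 cells kept), the shares were 2.08% (16 of 771 FBs, 1.19 to 3.35), 0 of 62 (up to 5.78%) and 2.27% (2 of 88, 0.276 to 7.97). The interval at 2 weeks reached into those of the other phases in both forms, so a lower share there was not detectable at this depth. Libraries shared 5, 1 and 3 cell barcodes pairwise, and none of these was an FB.

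In the healthy heart, members carried more transcripts of the metallothioneins Mt1 and Mt2, of Gpx3 and Gsta3 and of the cytokines Cxcl1 and Il6 than other FBs, and fewer of Meox1, Tbx20 and Mfap5. Of 9538 genes with at least 20 UMIs over the 63 members and the 1097 other FBs, 5.01% were at least 2-fold higher in members and 18.3% at least 2-fold lower, and 41.1% were higher by any amount. The median gene had a log2 ratio of -0.14, and scaling by the median ratio over genes in place of total UMIs moved every log2 ratio by -0.10. Because the other FBs include cells that the limits removed, the same values are also given against 401 healthy FBs that met those limits and had no UMI of Cxcl14 or Hsd11b1, called sum-0 FBs here. Against these, 2.84% of 6405 genes were at least 2-fold higher, 11.9% at least 2-fold lower and 42.6% higher by any amount. Both comparisons share the member cells and the library, so they are not independent. The sum-0 FBs were shallower, at a median of 2232 UMIs.

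Both metallothioneins were higher in the summed counts of members. Mt1 was at 3908 CPM in members (802 UMIs), 1607 in other FBs and 2078 in sum-0 FBs. The ratio was 2.43 (2.26 to 2.62) against other FBs and 1.88 (1.73 to 2.04) against sum-0 FBs. Per cell, Mt1 was uneven: the median member had 21.3 UMIs per 10000, the lowest 0 and the highest 195, while the median other FB had 5.42 and the highest 206. The cells of both groups thus overlapped over the whole range. Mt2, the second metallothionein, was 2.23-fold higher (1.96 to 2.54) and 1.86-fold higher than in sum-0 FBs.

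Mt1 (chromosome 8, 94179082 to 94180327) and Mt2 (94172664 to 94173568) lie on the plus strand of GRCm38, with 5513 bases between them. Their promoters are shown because both genes were higher in the summed counts of healthy members. Both windows also carry the core of the metal response element, the site read by the zinc-sensing factor MTF1. The windows run from 250 bases before to 50 bases after the RefSeq start (GRCm38.p6), at chr8:94178839-94179138 and chr8:94172368-94172667, both plus strand. Capitals mark each match to TGCACNC or TGCGCNC on either strand.
Mt1: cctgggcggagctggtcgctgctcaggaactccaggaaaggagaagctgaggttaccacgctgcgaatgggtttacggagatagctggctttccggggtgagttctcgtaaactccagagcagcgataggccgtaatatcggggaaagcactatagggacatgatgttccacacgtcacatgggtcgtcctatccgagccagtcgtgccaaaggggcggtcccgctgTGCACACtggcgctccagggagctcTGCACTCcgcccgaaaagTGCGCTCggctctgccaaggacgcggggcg
Mt2: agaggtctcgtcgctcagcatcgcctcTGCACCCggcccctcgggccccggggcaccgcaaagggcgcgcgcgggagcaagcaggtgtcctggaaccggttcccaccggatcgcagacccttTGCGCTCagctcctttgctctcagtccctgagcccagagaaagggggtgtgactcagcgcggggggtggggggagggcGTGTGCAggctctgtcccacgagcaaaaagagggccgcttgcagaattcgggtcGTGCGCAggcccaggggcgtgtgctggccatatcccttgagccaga
The Mt1 window held 3 matches and the Mt2 window 4, with no overlap between matches. Of 32851 RefSeq promoter windows of the same length, 25.7% held at least 1 match, 1.97% at least 3 and 0.518% at least 4. A match describes the letters only and says nothing about binding in these cells.

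Of the enzymes that remove peroxides and toxic electrophiles, some were higher and others were not. Gpx3, the secreted glutathione peroxidase, was at 1890 CPM in members and 811 in other FBs, a ratio of 2.33 (2.09 to 2.59), and 1.96 (1.74 to 2.20) against sum-0 FBs. Its median was 17.7 UMIs per 10000 in members and 6.05 in other FBs. Gsta3, a glutathione S-transferase, was 2.5-fold higher (1.90 to 3.24). Dpep1, a membrane dipeptidase that cleaves glutathione breakdown products, was at 760 CPM against 306, a ratio of 2.48 (2.09 to 2.94). Of the 19 genes of the list of redox and metal handling, 15 were higher by any amount, 4 at least 2-fold (Mt1, Mt2, Gpx3 and Gsta3) and 1 at least 2-fold lower (Cyb5r3, 0.416). Sod1, the cytosolic superoxide dismutase, had a ratio of 0.629 (0.376 to 0.991), Gpx1 0.765 (0.538 to 1.06) and catalase, Cat, 1.18 (0.555 to 2.23). The list's median log2 ratio was 0.34 against -0.14 for all genes. Against sum-0 FBs 14 of 19 were higher and none reached 2-fold, with a median of 0.26 against -0.10.

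Steroid-linked genes were mixed. The list of glucocorticoid-responsive genes had 16 measured members, with 11 higher, 3 at least 2-fold higher (Mt1, Mt2 and Sult1a1, the last with 3 UMIs in members) and 1 at least 2-fold lower. Klf9, a transcription factor induced by the receptor, had a ratio of 1.75 (1.42 to 2.15) and Errfi1, an inhibitor of EGF receptor signaling, 1.71 (1.34 to 2.16). Tsc22d3, the glucocorticoid-induced leucine zipper, had 1.29 (0.993 to 1.66). Other targets went the other way: Sgk1, a kinase, had 0.435 (0.186 to 0.868) and Cdkn1a, the cell cycle inhibitor p21, 0.513 (0.399 to 0.651). The list's median log2 ratio was 0.46, 0.24 against sum-0 FBs, and -0.0064 when FBs were required to carry no UMI of the 10 other-lineage genes, so its direction depended on the cells kept. The receptor itself, Nr3c1, had a ratio of 1.08 (0.746 to 1.52), and H6pd, which supplies the cofactor of Hsd11b1, 1.31 (0.466 to 2.97).

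G0s2, an inhibitor of the fat-cleaving lipase ATGL, lies next to Hsd11b1 on the minus strand of chromosome 1. G0s2 spans 193272161 to 193273217 and Hsd11b1 193221634 to 193264075, with 8085 bases between them. G0s2 was at 823 CPM in members, 259 in other FBs and 363 in sum-0 FBs, ratios of 3.18 (2.68 to 3.75) and 2.27 (1.88 to 2.73). It was at 784 CPM in members with Cxcl14 alone, 979 in those with Hsd11b1 alone and 775 in those with both genes. Lpl, which hydrolyses circulating triglycerides, was 2.06-fold higher (1.73 to 2.44) and Cebpa, an adipogenic transcription factor, 2.78-fold (1.27 to 5.44, 10 UMIs in members). In the list of lipid and retinoid genes 13 of 21 were higher, 2 at least 2-fold (Lpl and Cebpa) and 4 at least 2-fold lower, with a median log2 ratio of 0.18. This list was thus mixed, beside 5.01% of all genes at least 2-fold higher and 18.3% at least 2-fold lower.

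Some chemokines and cytokines that call in myeloid cells were higher, while their list as a whole was mixed. Cxcl1, a neutrophil attractant, was at 1939 CPM in members and 857 in other FBs, a ratio of 2.26 (2.03 to 2.51), and 1.88 (1.68 to 2.12) against sum-0 FBs. Il6 was 2.10-fold higher (1.57 to 2.76). The monocyte attractants Ccl2, Ccl7 and Ccl8 had ratios of 1.66 (1.23 to 2.19), 1.64 (1.25 to 2.13) and 3.61 (1.71 to 6.98). Tslp, an epithelial-type cytokine, had 3.45 (1.75 to 6.31, 13 UMIs in members). Of 18 measured genes of the list 11 were higher, 5 at least 2-fold (Cxcl1, Il6, Ccl8, Ccl11 and Tslp) and 3 at least 2-fold lower, 1 of which was at 0 in members. Over all genes 41.1% were higher, 5.01% at least 2-fold, and 18.3% at least 2-fold lower. The median log2 ratio was 0.16, or 0.42 with that gene at its 3-count bound. Cxcl12, the homeostatic chemokine of stromal cells, had a ratio of 1.07 (0.686 to 1.61).

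Immediate-early genes moved with these lists. Of 22 immediate-early and heat shock genes 21 were higher in members by any amount, 1 at least 2-fold (Hspa1b), and their median log2 ratio was 0.53. Against sum-0 FBs 21 of 22 were higher, with a median of 0.45. Fos had a ratio of 1.32 (1.23 to 1.40), Jun 1.61 (1.5 to 1.73) and Dnajb1, a heat shock cochaperone, 1.79 (1.52 to 2.10). The part of this list in the values above was not tested. Hspa1b had 2.65 (2.03 to 3.41), but its transcript is nearly identical to that of Hspa1a, so the split of reads between them is uncertain.

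Among signaling genes, Nmb, which encodes the bombesin-like peptide neuromedin B, had the largest ratio of those named. It was at 161 CPM in members (33 UMIs), 30.5 in other FBs and 46.5 in sum-0 FBs, a ratio of 5.28 (3.47 to 7.84) and of 3.46 (2.15 to 5.48). Rgs17, a regulator of G protein signaling, had 4.07 (2.47 to 6.45). Ptger4, the EP4 receptor for prostaglandin E2, had 3.76 (2.23 to 6.05) and Adm, which encodes the vasodilator adrenomedullin, 3.43 (2.10 to 5.40). Ifi205, an interferon-inducible gene with close paralogs, had 2.85 (1.98 to 4.01). These genes were sparse, with 21 to 39 UMIs over 63 members. Of 10 small proteoglycan genes 5 were higher and 5 lower, 1 and 3 of them at least 2-fold. Podn had a ratio of 2.93 (2.05 to 4.08), Dcn 1.33 (1.29 to 1.38) and Lum 1.19 (1.08 to 1.30). Aspn, asporin, had 0.484 (0.379 to 0.609), while Fmod, fibromodulin, was at 1 UMI against 590 (0.0306, interval 0.000774 to 0.171).

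Basement membrane genes were slightly higher as a group. Of 11 measured, 9 were higher and 2 at least 2-fold, with a median log2 ratio of 0.54, or 0.28 over 10 genes against sum-0 FBs. Smoc2, a matricellular calcium-binding protein of basement membranes, was at 1296 CPM in members and 595 in other FBs, a ratio of 2.18 (1.91 to 2.48). Nid2, nidogen 2, had 2.75 (1.45 to 4.85, 14 UMIs) and Lama2, the laminin alpha chain of muscle, 1.83 (1.44 to 2.30). Hspg2, perlecan, had 1.01 (0.790 to 1.26). The complement proteases C1ra and C1s1 were higher as well, C1ra at 2.32 (1.53 to 3.40) and C1s1 at 2.40 (1.65 to 3.38), among 10 measured complement genes of which 4 were higher and 3 at least 2-fold lower.

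**Figure D3:**
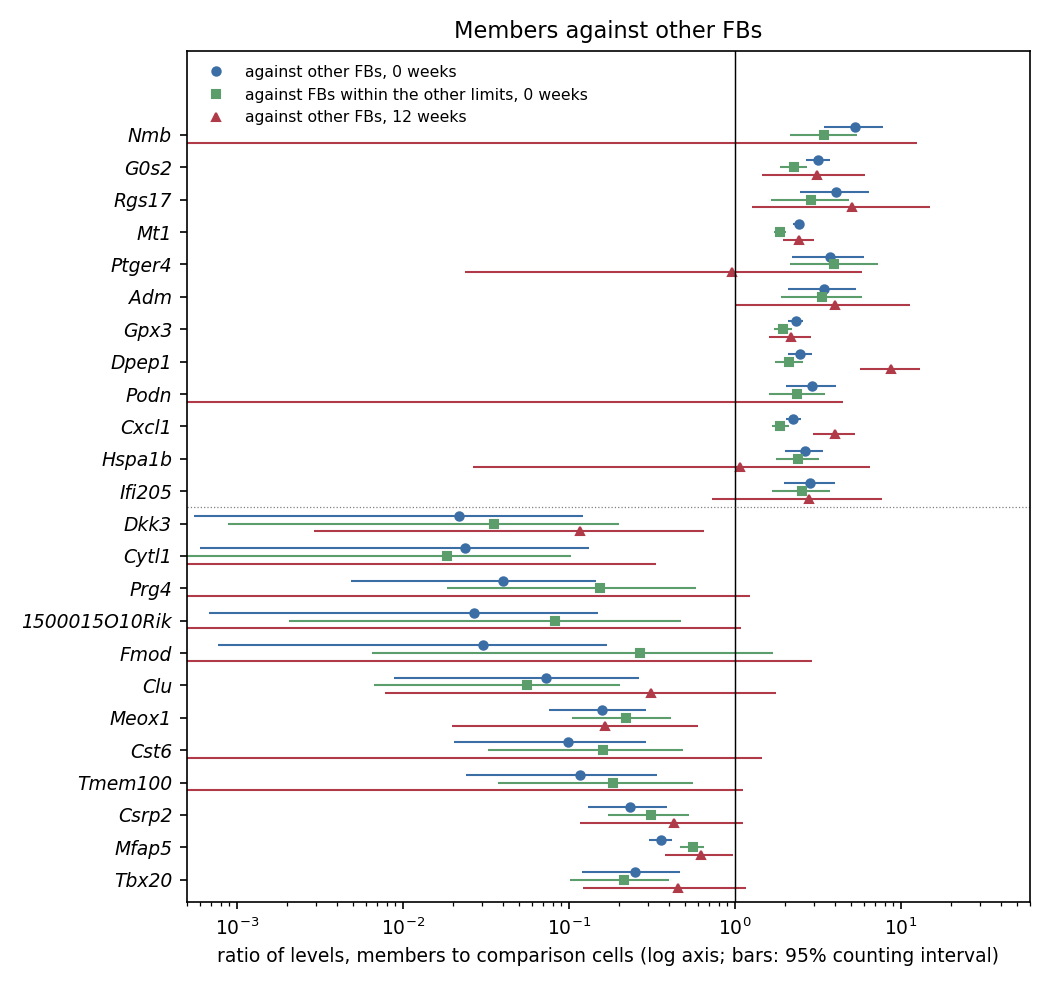
Ratio of levels (log axis) of members to other FBs of 0 weeks (circles), to healthy FBs within the other limits with no Cxcl14 or Hsd11b1 UMI (squares) and of 12-week members to other FBs of 12 weeks (triangles), for the 12 named genes higher and 12 lower in healthy members. Bars are 95% counting intervals, and a bar without a point is a gene with 0 UMIs in the 12-week members; Nmb lies at 5.28 and 3.46 in the healthy comparisons.

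The levels were not a step at the threshold of 3. Among healthy FBs within the other limits, cells with a sum of 0, 1, 2, 3, 4 to 9 and at least 10 (401, 88, 36, 16, 33 and 14 cells) had 2078, 3275, 3189, 2105, 4198 and 4871 CPM of Mt1. Gpx3 went from 966 to 1244, 1595, 1972, 1993 and 1604 CPM over the same classes. Nmb went from 46.5 to 76.7, 90.3, 111, 138 and 251 CPM. Cells just under the threshold therefore lay between the sum-0 FBs and the members with a sum of 4 to 9 for all 3 genes. Depth moved with the sum, since the median cell had 2232 UMIs at a sum of 0 and 3776 at a sum of at least 10. Members with Cxcl14 alone, Hsd11b1 alone and both genes did not differ in the same way for each gene. Gpx3 was at 1952, 1937 and 1829 CPM in these sets. Cxcl1 was at 1376, 1958 and 2294 CPM, and Nmb at 128, 65.3 and 227.

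**Figure D4:**
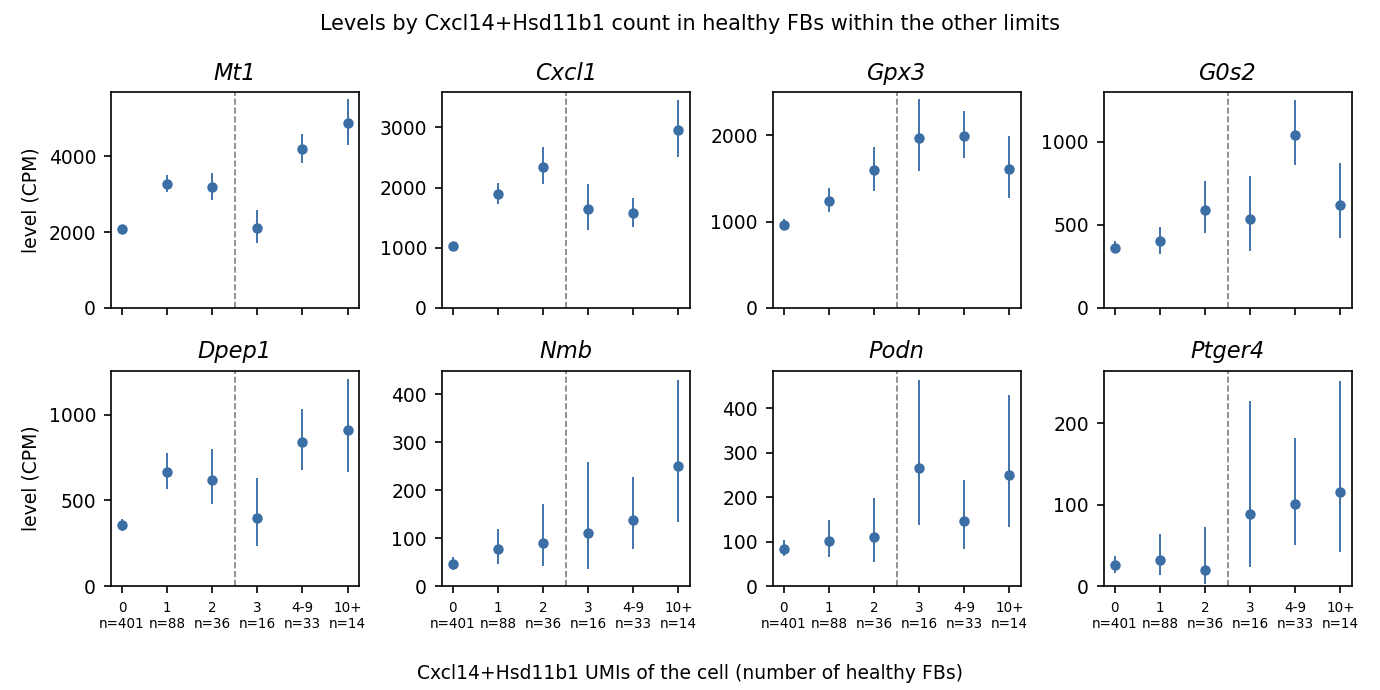
Levels (CPM) of 8 genes in healthy FBs within the other limits, grouped by their UMIs of Cxcl14 and Hsd11b1, with 95% counting intervals and a dashed line at the selection limit. Mt1 is at 2078 CPM in the 401 cells with a sum of 0 and 4871 CPM in the 14 cells with a sum of at least 10, with 2105 CPM at a sum of 3.

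Among the 4 groups of healthy FBs that the limits set apart, Inmt/Gdf10 FBs had the levels of Gpx3, Dpep1, Mt1, Nmb and Podn nearest to those of members. The 31 healthy FBs with more than 2 UMIs of Inmt and Gdf10 had 2310 CPM of Gpx3 (2032 to 2615), above the 1890 of members, and 1493 CPM of Dpep1 (1272 to 1743), above the 760 of members. Their Mt1 was 2922 CPM (2608 to 3263), Nmb 139 (77.9 to 230) and Podn 250 (165 to 364). Their Cxcl14 was 195 CPM (121 to 298) against 1861 in members, which were selected for it. Healthy FBs with Cd248 had 732 CPM of Gpx3 and 1277 of Mt1, and those with more than 4 UMIs of Postn, Thbs4 and Cilp 475 and 684. Gpx3, Dpep1, Nmb and Podn were therefore shared with Inmt/Gdf10 FBs and not particular to members.

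Many genes of the activated and adventitial lists were lower, and the rule itself keeps cells with Cd248 or many Postn UMIs out of the members and in the other FBs. Of 24 genes of the activated list 13 were at least 2-fold lower and 1 at least 2-fold higher, and of 15 adventitial genes 8 were at least 2-fold lower. Over all genes 18.3% were at least 2-fold lower and 5.01% at least 2-fold higher. Clec3b, tetranectin, was the 1 adventitial gene higher in members, at 1.63 (1.47 to 1.79). Acta2, smooth muscle actin, had 1 UMI in members and 359 in other FBs (ratio 0.0503, interval 0.00127 to 0.282). Against sum-0 FBs, which met the same limits, the counts at least 2-fold lower were 6 of 18 and 3 of 14, beside 11.9% of all genes. Some genes were lower against those cells too. Meox1, a transcription factor of FB activation, had 10 UMIs in members (48.7 CPM) and 220 CPM in sum-0 FBs, 4.52-fold lower. Tbx20, a cardiac T-box factor, was 4.66-fold lower, at 10 UMIs. Mfap5, a microfibril protein of adventitial FBs, was at 799 CPM against 1432, or 1.79-fold lower. Dkk3, a secreted Wnt modulator, had 1 UMI in members (ratio 0.0354, interval 0.000890 to 0.200) and Cytl1, a cartilage-linked cytokine, 1 (0.0185, interval 0.000467 to 0.104). Clu, clusterin, had 2 (0.0558, interval 0.00670 to 0.204). For Fmod, by contrast, the interval against sum-0 FBs ran from 0.00650 to 1.70. The 12 named genes lower in members had ratios of 0.0219 (Dkk3) to 0.360 (Mfap5) against other FBs. Among the groups that the limits set apart, Dkk3 and Cytl1 were most abundant in the 122 healthy FBs with more than 1 UMI of Wif1, Comp and Chad, all of them among the other FBs, at 903 and 625 CPM.

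At 12 weeks the 9 members held 20477 UMIs, 1 UMI was 48.8 CPM, and single cells decided several values. The median member had 2252 UMIs and the median other FB 2737. Of 4047 genes measured against the 153 other FBs of that library, 13.6% were at least 2-fold higher, 34.5% at least 2-fold lower and 42.0% higher by any amount. Dpep1 was detected in all 9 cells, at 5.95 to 45.2 UMIs per 10000, and stood at 1612 CPM against 184, a ratio of 8.75 (5.73 to 13.0). Gpx3 was at 2588 against 1191 CPM, a ratio of 2.17 (1.61 to 2.88), and Cxcl1 at 2637 against 657, a ratio of 4.01 (2.96 to 5.35). Without the cell richest in each gene these ratios were 7.23, 2.14 and 3.01. Gsta3 had 6.24 (3.04 to 11.8), or 3.74 without its top cell. Cebpb, an inflammatory transcription factor, had 3.71 (2.41 to 5.52), or 2.30 without it, and Lpl 4.44 (2.39 to 7.69), or 2.99. Il6 had 4.11 (2.04 to 7.58, 12 UMIs) but 0.820 without its top cell.

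Several other genes higher in healthy members rested on few UMIs or on 1 cell at 12 weeks. Mt1 had a ratio of 2.43, but 59 of its 92 UMIs lay in 1 cell, and without it the ratio was 1.08. Mt2 had 1.29 (0.834 to 1.91). G0s2 had 3.16 (1.46 to 6.08), or 1.78 without its top cell, and Adm went from 4.01 to 1.11 in the same way. Nmb and Podn had 0 UMIs in the 9 members and 10 and 25 in the other FBs, with intervals that reached 12.5 and 4.47. Ptger4 had 1 UMI, a ratio of 0.969 (0.0237 to 5.84). The chemokine list had 8 of 10 measured genes higher and 6 at least 2-fold, with a median log2 ratio of 1.20 against -0.29 for all genes. The immediate-early list had 15 of 22 higher and a median of 0.22.

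Of the 29 lists, that of basement membrane genes had the highest median in members against other FBs at 12 weeks. All 9 measured were above other FBs and 7 at least 2-fold, with a median log2 ratio of 1.51. Over all genes 42.0% were higher and 13.6% at least 2-fold, with a median of -0.29. Lamb1, the laminin beta 1 chain, had 16 UMIs in 9 members and 18 in 153 other FBs, 781 against 31.3 CPM, a ratio of 25.0 (11.9 to 51.9). Its 18 UMIs in other FBs were fewer than 20, so Lamb1 met the filter only through its UMIs in members. Smoc2 was at 1856 against 266 CPM, a ratio of 6.98 (4.76 to 10.0). Sparcl1, a collagen-binding relative of Sparc, had 2.85 (2.06 to 3.85), Lama4, the endothelial-type laminin alpha chain, 4.24 (1.74 to 8.98, or 2.35 without its top cell) and Hspg2 2.62 (1.43 to 4.45). The endothelial marker sum was also higher in these members, at 440 CPM (9 UMIs, with Gpihbp1, Cldn5 and Emcn at 0) against 257. In the healthy library this sum was 185 CPM in members and 312 in other FBs. Its part in the values of either library was not tested.

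**Figure D5:**
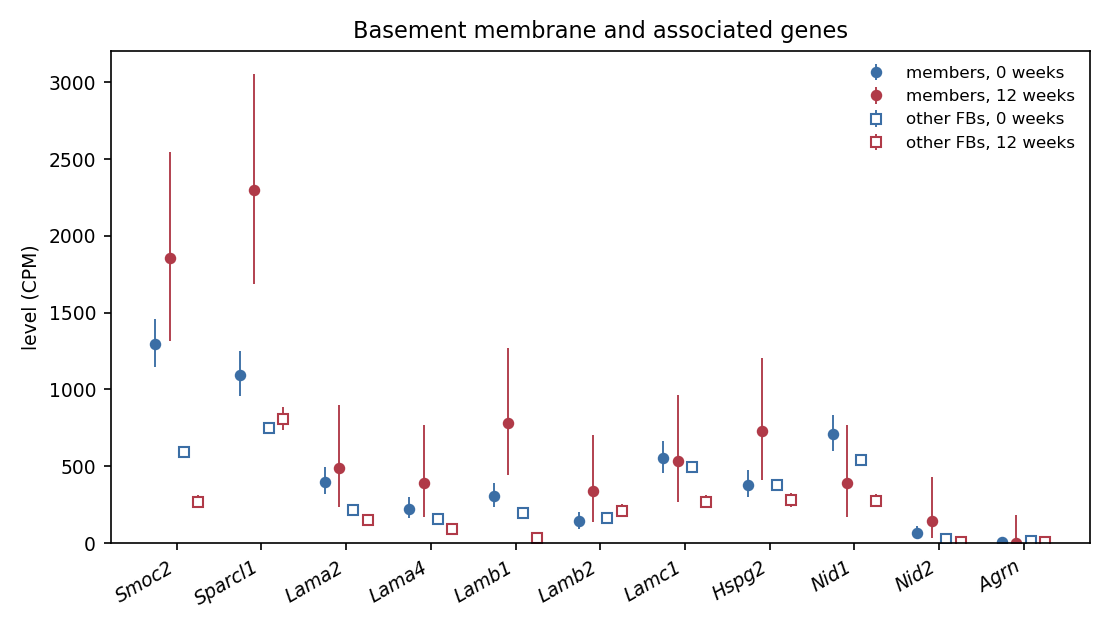
Levels (CPM) of 11 basement membrane genes in members (filled circles) and other FBs (open squares) of 0 and 12 weeks, with 95% Poisson intervals. Lamb1 stands at 781 CPM in 12-week members and 31.3 CPM in other FBs of that library, and Smoc2 at 1856 and 266 CPM.

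Between the healthy and the heart failure library, 1586 genes could be measured in members. Of these 11.3% were at least 2-fold higher at 12 weeks, 23.6% at least 2-fold lower and 48.1% higher by any amount. The largest ratios were of ribosomal and ribosome-like genes that were also higher in other FBs of the same library. The pseudogene-like Gm10076, Gm10073 and Gm9844 and the ribosomal AY036118 had 14.4, 6.27, 7.52 and 5.11 in members and 9.37, 9.16, 3.58 and 6.23 in other FBs. These share sequence with multicopy genes and are uncertain.

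A few genes differed in members by more than in other FBs. Mfge8, a bridging protein for the uptake of apoptotic cells, was at 733 CPM at 12 weeks and 151 at 0 weeks, a ratio of 4.85 (2.43 to 9.26), and had 1.24 in other FBs. Nr4a3, an immediate-early nuclear receptor, had 5.51 (2.39 to 12.1), or 3.38 without its top cell, and 0.895. Tm4sf1, a tetraspanin-like membrane protein, had 4.43 (2.44 to 7.76) and 1.87. Cebpb had 3.34 (2.10 to 5.18), or 2.07 without its top cell, and 1.41. The difference between members and other FBs was not tested, as each phase was 1 library.

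The genes lower at 12 weeks were partly those lower in all FBs of the library. Sparc, a collagen chaperone, was at 2002 CPM against 4424, 2.21-fold lower, and 2.42-fold lower in other FBs. Neat1, a nuclear long noncoding RNA, was 4.51-fold lower and 3.05-fold lower in other FBs, and Ifi27l2a, an interferon-induced gene, 3.91-fold and 2.65-fold. Zbtb20, a transcriptional repressor, was 4.59-fold lower and 1.66-fold lower in other FBs. Gadd45g, a stress-response gene, had 0 UMIs at 12 weeks and 137 in healthy members, at least 4.56-fold lower against a floor of 3 counts, and had a ratio of 1.03 in other FBs. With a threshold of 2 UMIs for membership, however, its log2 ratio was 0.29, so this value rested on which cells were kept. Npm1, nucleophosmin, and Cdc42, a small GTPase of the cytoskeleton, were also at 0, at least 2.56-fold and 2.46-fold lower. Hspe1, a mitochondrial chaperonin, had 1 UMI against 102 (0.0983, interval 0.00246 to 0.560).

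Most basement membrane genes were higher at 12 weeks in members and lower in other FBs. In members 7 of 9 were higher, 3 at least 2-fold, with a median log2 ratio of 0.80. In other FBs 9 of 11 were lower, 3 at least 2-fold, with a median of -0.74. Over all genes 48.1% were higher in members. The matching share in other FBs is not given here, so their count has no background beside it. Lamb1 was at 307 CPM in healthy members and 781 in those of 12 weeks, a ratio of 2.55 (1.37 to 4.46), and had a ratio of 0.160 (0.0944 to 0.255) in other FBs. Smoc2 had 1.43 (0.991 to 2.02) and 0.447, and Nid1, nidogen 1, 0.549 (0.233 to 1.11) and 0.510. The endothelial marker sum moved the same way, from 185 to 440 CPM (201 to 834, 9 UMIs) in members and from 312 to 257 in other FBs, and its part in these values was not tested. Redox genes showed no such split, with median log2 ratios of 0.17 in members and 0.14 in other FBs.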

How the data were processed

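Each of 3 libraries of ventricular non-cardiomyocytes (10x Chromium 3' chemistry) was deposited as UMI counts per gene and cell, which the authors made with Cell Ranger 2.0.0 on mm10 according to the submitters' processing notes. Cells had been digested with type II collagenase and DNase I and passed over Percoll. Totals were 12287823, 4465929 and 1712728 UMIs at 0, 2 and 12 weeks, over 3892, 2231 and 792 cells with at least 200 genes. Counts were summed over the cells of a group and divided by the group's total (CPM). Ratios carry conditional binomial 95% intervals, levels exact Poisson and shares Clopper-Pearson intervals. List medians use log2 ratios with 1 CPM added. Genes needed 20 UMIs over both groups, and a gene was counted as 2-fold from its ratio alone. No p-value was computed. Members and gene lists (29 lists, 385 genes, 3 not in the tables) were chosen with earlier results of these data known. Named genes were the 12 each way in the healthy comparison, with at least 100 UMIs, and the 8 each way between phases, seen in at least 3 cells where higher, whose interval bound nearest to 1 was farthest from it, with at least 100 CPM in the higher group. Some genes and sums are not reported here. Neither set includes genes of the rule, nor mitochondrial, haemoglobin or ribosomal protein genes recognised by symbol. Other genes named belong to the lists or the rule, and those shown from a list were picked after their values were seen. Doublets were not removed: Scrublet (scanpy 1.11.5) marked 0.899%, 0.0897% and 0.631% of cells and no member, so few that it may have missed some. Gene positions are from the GENCODE annotation of GRCm38 and promoters from RefSeq. Alternatives changed the thresholds of the rule, the cells kept, the depth, the scaling and the filter on genes. Python 3.11.15 was used with pandas 2.3.3, scipy 1.17.1 and numpy 2.4.6. The ratio of summed counts and its interval were tested on simulated sums, and the other steps were not.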

Additional observations from a re-analysis of the deposited data

Results flagged for a closer look

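For 7 genes of the lists or the named set, the ratio of the 12-week to the healthy library lay on 1 side of 1 in members and on the other in other FBs, with both intervals off 1. The difference was not tested, since each phase was 1 library and both ratios share the libraries. Ratios above 1 in members were found for Cxcl1 (1.36, against 0.767 in other FBs), Dpep1 (2.12 against 0.602), Fosb (1.42 against 0.854), Hspg2 (1.93 against 0.741) and Lamb1 (2.55 against 0.160). Ratios below 1 in members were found for Fos (0.723 against 1.36) and Fth1 (0.770 against 1.07), the latter the heavy chain of ferritin. Without the member richest in the gene, Cxcl1 had 1.02, Fosb 1.03, Hspg2 1.42, Dpep1 1.75 and Lamb1 2.17, so the first pair rested on 1 cell. Fos and Fosb, 2 genes of the Fos family, went opposite ways, but the Fosb ratio was 1.03 without its richest member.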

How the results depend on the processing

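No paired analysis was possible because each phase was 1 library and no test was run. With 1 library a phase, none could be left out, and the cell richest in each gene was left out in its place. The share of members among healthy FBs (5.43%) was 8.53% with a minimum sum of 2, 3.45% with 5, 2.5% with both genes required, 2.08% after thinning and 7.33% without the limits. The 2-week share was 0 with both genes required, with no UMI of other lineages, after thinning and without the cell that went against its label (the last chosen after seeing the data), and the 12-week share was 2.27% after thinning. In healthy members against other FBs, 478 genes were at least 2-fold higher and 1744 lower; these were 758 and 2822 with both genes required, 183 and 964 with 50 UMIs, 1289 and 6136 without a filter, 156 and 224 with an interval off 1, and 182 and 760 against sum-0 FBs, the last 2 pairs chosen after seeing the data. For 12 weeks against 0 (180 and 375) they were 90 and 163 with both genes required, 41 and 74 with 50 UMIs, 2016 and 6154 unfiltered and 76 and 33 with an interval off 1, with 248 lower at a minimum sum of 5. The 2-week cell against healthy members gave 305 and 863, or 150 and 502 at a minimum sum of 5, 65 and 257 with 50 UMIs, 1288 and 8561 unfiltered, 82 and 53 with an interval off 1, and 639 higher with median-ratio scaling. With no UMI of other lineages, the glucocorticoid list's median log2 ratio was -0.0064 in the healthy comparison, and between phases the chemokine median was -1.45 and the immediate-early median 0.039. Between phases the glucocorticoid median was -0.13 as a mean over cells, the chemokine median -0.37 unfiltered, and Gadd45g 0.29 at a minimum sum of 2. In the 2-week library the medians were -8.57 (basement membrane), -7.06 (redox), -6.67 (glucocorticoid), -6.74 (chemokine) and -1.08 (immediate-early), and Gpx3 had -9.28, Dpep1 -6.29, Cxcl1 -9.77, Hspa1b -8.22 and Csrp2 1.18, values of 1 cell set by the CPM added. In the 12-week library Ptger4 had -0.045 and Podn -5.47. Over all alternatives, 174 list medians and 664 gene ratios kept their direction and at least 50% of their log2 size. Growth had no upper limit in this count. A further 12 and 13 fell below that size without changing direction, and 10 and 8 changed direction. At 12 weeks 9 cells limit every value, and a gene with 0 UMIs there may have stood at up to 147 CPM (3 counts).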

Other observations

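Cells that missed the FB rule but carried at least 3 UMIs of Cxcl14 and Hsd11b1 numbered 9 at 0 weeks, 0 at 2 weeks and 3 at 12 weeks. All 9 healthy cells had at least 5 UMIs of Dcn, and 6 of them had 1 or 2 UMIs of the FB genes and no more than 1 of another lineage, so they lay just under the limit of 3. At 12 weeks 2 of the 3 had at least 5 UMIs of Dcn.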
